A study of Mus musculus with 4 samples.

Results

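Small leucine-rich proteoglycans are secreted matrix proteins, and 10 of their genes (Aspn, Dcn, Bgn, Ecm2, Lum, Kera, Omd, Fmod, Prelp and Ogn) were followed in cultured mouse ureters in which WNT secretion was blocked. Members were all probes whose gene name in the array files equals one of these symbols, which gave 10 probes of 39429 gene probes and 10 genes of 29924 gene names, with 1 probe per gene. All 10 genes were among the 22461 genes tested. The group was chosen by measured values of these arrays, with the treated over control ratio of Aspn already known. The treated over control values of these genes are therefore given as a description. No p-value is printed for them, and whether they pass a threshold supports nothing by itself.

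Ureters of wild-type NMRI embryos at E12.5 were kept for 18 h on membranes in medium with 10 µM IWP-2 or, as control, in medium with the solvent DMSO (2:1000). IWP-2 inhibits Porcupine, the enzyme that attaches the lipid WNT ligands need to leave the cell, so it acts on ligands of every cell of the explant. The data are 4 two-colour Agilent arrays, each with RNA from 1 pool of treated ureters against RNA from 1 pool of control ureters, and the treated RNA was labelled with AlexaFluor647 (red) on arrays 1 and 3 and with AlexaFluor555 (green) on arrays 2 and 4. The study's text is not uniform on how many pools and arrays there were at this stage, so n counts arrays, some of which could share pools, and p-values and SDs measure the spread between these arrays, which may be partly technical.

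The proteins of this family have a core of leucine-rich repeats that binds collagen, and most carry chondroitin, dermatan or keratan sulfate chains. They space and align collagen fibrils in tendon, skin and cornea, and several bind TGF-beta and its relatives. In organs with a mesenchymal wall they are made mainly by fibroblasts and their precursors. Values from whole explants cannot tell fewer cells of a type apart from less RNA per cell.

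Aspn, Ecm2, Omd and Ogn lie side by side on chromosome 13, and the bases around their transcription starts are shown because 1 of these 4 neighbours rose and the others did not. The sequences are from RefSeq (GRCm38.p6) and run from 250 bases before to 50 bases after the annotated start, all on the plus strand, at chr13:49504560-49504859 for Ecm2, chr13:49544193-49544492 for Aspn, chr13:49582212-49582511 for Omd and chr13:49607765-49608064 for Ogn. Capitals mark matches to the core of TCF/LEF sites, the factors of canonical WNT signalling (CTTTGA or CTTTGT), or to the TATA box (TATAAA), on either strand.
Ecm2: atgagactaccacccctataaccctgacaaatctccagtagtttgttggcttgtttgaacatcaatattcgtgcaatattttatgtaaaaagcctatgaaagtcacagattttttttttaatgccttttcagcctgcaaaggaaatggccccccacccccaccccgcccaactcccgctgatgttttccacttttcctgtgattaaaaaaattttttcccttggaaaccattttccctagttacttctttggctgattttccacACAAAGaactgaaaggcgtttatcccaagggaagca
Aspn: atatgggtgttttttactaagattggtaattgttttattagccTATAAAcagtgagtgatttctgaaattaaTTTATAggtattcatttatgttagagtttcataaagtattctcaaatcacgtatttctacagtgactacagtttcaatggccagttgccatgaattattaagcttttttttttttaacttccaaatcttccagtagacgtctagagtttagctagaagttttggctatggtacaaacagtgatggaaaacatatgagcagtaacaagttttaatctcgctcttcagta
Omd: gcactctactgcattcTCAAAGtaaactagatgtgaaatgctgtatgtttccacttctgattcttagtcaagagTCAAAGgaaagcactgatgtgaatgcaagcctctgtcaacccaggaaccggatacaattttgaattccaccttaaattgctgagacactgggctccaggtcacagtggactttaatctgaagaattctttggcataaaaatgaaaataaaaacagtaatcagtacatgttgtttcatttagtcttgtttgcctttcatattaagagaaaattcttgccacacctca
Ogn: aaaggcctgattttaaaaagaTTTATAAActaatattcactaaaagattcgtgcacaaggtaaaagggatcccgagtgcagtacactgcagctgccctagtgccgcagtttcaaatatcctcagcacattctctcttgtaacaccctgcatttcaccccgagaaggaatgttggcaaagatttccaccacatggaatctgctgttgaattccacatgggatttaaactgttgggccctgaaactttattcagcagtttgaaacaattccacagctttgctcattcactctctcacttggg
Ecm2 had 1 TCF/LEF core and Omd had 2, while Aspn and Ogn had none in this window. Aspn had the TATA letters at 2 places, 1 on each strand, at offsets of -207 and -178 from the annotated start. Ogn also had 2 matches, which overlap, at -229 and -227. Over all 32851 RefSeq promoters of the same length, 31.2% held a TCF/LEF core and 13.6% held the TATA letters, so both are common by their letters alone. The GLI site GACCACCCA, bound by the factors of SHH signalling and found in 0.253% of all promoters, and the palindromic SMAD element GTCTAGAC, found in 0.213%, were in none of the members' windows. GC content was 31.0% for Aspn, 37.7% for Omd, 41.0% for Ecm2 and 42.3% for Ogn. Outside chromosome 13, Bgn and Kera had 1 TCF/LEF core each, and Fmod and Prelp had none of the 4 motifs. RefSeq entries were matched for 8 of the 10 genes, not for Dcn and Lum.

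The gene spots had a median raw intensity of 368 to 711 in control and 385 to 694 in treated channels, over a local background of 28 to 77, without saturation. From 75.1% to 80.0% of all probes exceeded background clearly. All 4 arrays were on 1 slide with 1 scan time. Of the marker lists for the tissue, all 7 epithelial and all 6 smooth muscle markers were above background, whereas the fibroblast genes Dpt and Clec3b and the cartilage or bone genes Matn1, Comp, Cnmd and Dmp1 were not. Dye had no effect past the adjusted threshold of limma on any gene. An unadjusted p under 0.05 for dye in limma was found for 4231 of the 22461 genes. That is more than the share of 0.05 expected with no dye effect, so the lack of calls does not show that dye was without effect.

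Of the 10 genes, Aspn and Dcn passed the limma fit over all genes as higher with IWP-2, Ecm2, Fmod and Prelp passed as lower, and Bgn, Lum, Kera, Omd and Ogn did not pass. Passing means an adjusted p under 0.05 by limma with Benjamini-Hochberg adjustment over all genes. Among all genes tested, 18.1% passed as higher, 15.0% as lower and 33.1% in either direction, and since the genes were chosen with these values known, nothing is read from the comparison. Ratios had 1 sign on all 4 arrays for 7 of the 10 genes, higher for Aspn and Dcn and lower for Bgn, Ecm2, Omd, Fmod and Prelp. Among all genes, 22.3% were higher on all 4 arrays and a further 21.0% were lower on all 4. The 7 genes span both directions, so both shares together are their background, and nothing is read from this comparison either. The median log2 ratio of the 10 genes was -0.11, beside 0.00 for all genes, and the SD between arrays over all genes had a median of 0.107.

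**Figure D1:**
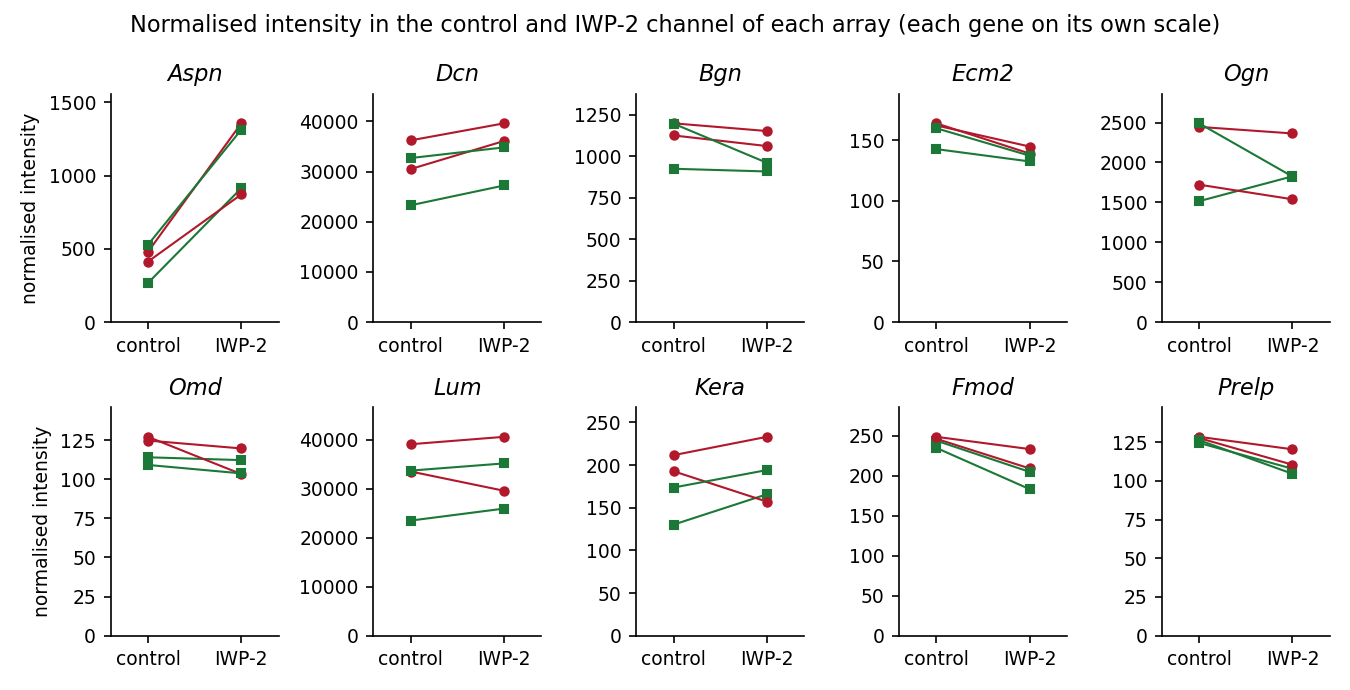
Normalised intensity (linear scale from 0, each gene on its own scale) of the 10 proteoglycan genes in the control and the IWP-2 channel. Each line joins both channels of 1 array, with red circles for arrays with the treated RNA in AlexaFluor647 (1 and 3) and green squares for those with it in AlexaFluor555 (2 and 4). All 4 lines rise steeply for Aspn, from 268 to 529 in control up to 872 to 1357, while the lines of Ogn and Kera cross.

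Aspn encodes asporin, which binds collagen and calcium, restrains TGF-beta and, unlike decorin and biglycan, bears no glycosaminoglycan chain. Its probe lies at chr13:49662479-49662538 (mm9). Normalised intensity, which is on an arbitrary scale that cannot be compared between probes, was 480, 268, 413 and 529 in the control channels of arrays 1 to 4 and 1357, 914, 872 and 1314 in the treated channels. The groups did not overlap, and the lowest treated value stood above the highest control value. Among all genes, 10.9% had treated values wholly above the control values.

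The log2 ratio of Aspn was 1.50, 1.77, 1.08 and 1.31 on arrays 1 to 4, a mean of 1.42 ± 0.29 (SD, n = 4) or 2.67-fold. It ranked number 5 from the highest of the 22461 genes. The ratio was higher on arrays 1 and 2 than on arrays 3 and 4, and within each of these pairs higher with the treated RNA in green, where the mean was 1.54, than in red, where it was 1.29. The 4 spots of the probe on 1 array differed with a median SD of 0.057, well under the spread between arrays. Feature Extraction's own processed signals gave folds of 2.40 to 4.37, and Aspn alone of the 10 genes exceeded 2-fold on all 4 arrays. These signals were 290, 190, 226 and 343 in treated channels and 88.8, 43.4, 94.2 and 125 in control channels of arrays 1 to 4. An intensity over 100 on all 4 arrays was therefore met by the treated channel only. Under the 16 alternative settings the fitted value lay between 1.30 and 1.65.

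Markers of several other cell types were higher with IWP-2, and those of others were lower. Beside the counts stand the shares over all genes, 18.1% higher and 15.0% lower. All 7 epithelium markers rose (Epcam, Cdh1, Krt8, Krt18, Krt19, Cldn4 and Cldn7, by 0.24 to 0.34), and their summed intensity was 179906 to 195169 in control and 205264 to 255388 in treated channels. Here and below, a sum adds probes whose intensities cannot be compared. It is set mainly by the brightest probes and can go another way than the list median. Of 7 markers of nephron progenitors and renal stroma, 6 rose (median 0.28, summed 56765 to 65618 against 65685 to 72936), among them Six2 by 1.14, Meox1 by 0.39 and Foxd1 by 0.31, and Crym fell by 0.96. Markers of endothelium (4 of 6 higher, median 0.19), blood (4 of 6, median 0.27) and macrophages (4 of 6, median 0.24) rose too, with summed intensities of 47325 to 55726 against 54652 to 64214, 283286 to 430626 against 404700 to 456881, and 14309 to 18596 against 16254 to 20202. The blood markers moved mainly on the arrays with the treated RNA in red, with list medians of 0.36, 0.06, 0.45 and 0.10 on arrays 1 to 4, and their sum fell on array 2, from 430626 to 426325. The macrophage medians were 0.47, 0.18, 0.33 and 0.10. No marker of these lists was below background. Smooth muscle markers (Cnn1, Actg2, Tagln, Acta2, Synpo2 and Myh11) fell, 6 of 6, with a median of -0.59 and a summed intensity of 32175 to 46794 in control and 20497 to 29283 in treated channels. Of 5 neural crest markers, Ret rose by 0.28 and Ednrb, for an endothelin receptor, fell by 1.38 ± 0.29, with a median of 0.06 and a summed intensity that was lower with IWP-2 on all 4 arrays (42642 to 48326 against 25686 to 40797). The part of these shifts in the values of Aspn and its relatives was not tested.

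Dcn and Bgn are the closest relatives of Aspn. Decorin (chr10:96980233-96980292) limits the width of collagen fibrils and binds TGF-beta. Its intensity was 36222, 23296, 30506 and 32699 in control and 39614, 27230, 36099 and 34821 in treated channels. The groups overlapped, but on each array the treated channel was the higher one. The log2 ratio was 0.13, 0.23, 0.24 and 0.09, with a mean of 0.17 ± 0.07 or 1.13-fold. Dcn passed under 10 of 16 alternatives, and no longer did without array 2 (0.14) or array 3 (0.14), with processed signals (0.18), with median centring in place of loess (0.13), in the deposited table of rounded fold changes (0.19) or with channels unpaired. Here and below, a value without 1 array is the fitted one unless it is called a mean, and in it both dye orders weigh the same, so that the array left alone in its order counts most.

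Biglycan (chrX:70738554-70738613), which carries chondroitin or dermatan sulfate chains as decorin does and is abundant in bone and cartilage, was measured at 1199, 925, 1126 and 1197 in control and 1152, 909, 1062 and 961 in treated channels. Its log2 ratio of -0.06, -0.03, -0.08 and -0.32 had 1 sign on all arrays, and its mean of -0.12 ± 0.13 did not pass. Array 4 set most of this mean, which was -0.06 without it. Without array 2 the mean was -0.15, and the fitted value of -0.19, in which array 4 alone stood for its dye order, passed as lower.

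Ecm2 (chr13:49628083-49628142) encodes a matrix protein with leucine-rich repeats like those of decorin. It was dim, at 164, 143, 162 and 160 in control and 139, 132, 145 and 137 in treated channels, and the groups overlapped only through the low control value of array 2. The log2 ratio of -0.24, -0.11, -0.16 and -0.22 had a mean of -0.18 ± 0.06. Ecm2 passed as lower in 10 of 15 alternatives, and no longer did without array 1 (-0.16) or array 4 (-0.15), with median centring (-0.16), in the deposited table (-0.35) or with channels unpaired. An offset of 50 added to every intensity shrinks the ratios of dim probes, and the processed signals, which have no offset, gave -0.37.

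**Figure D2:**
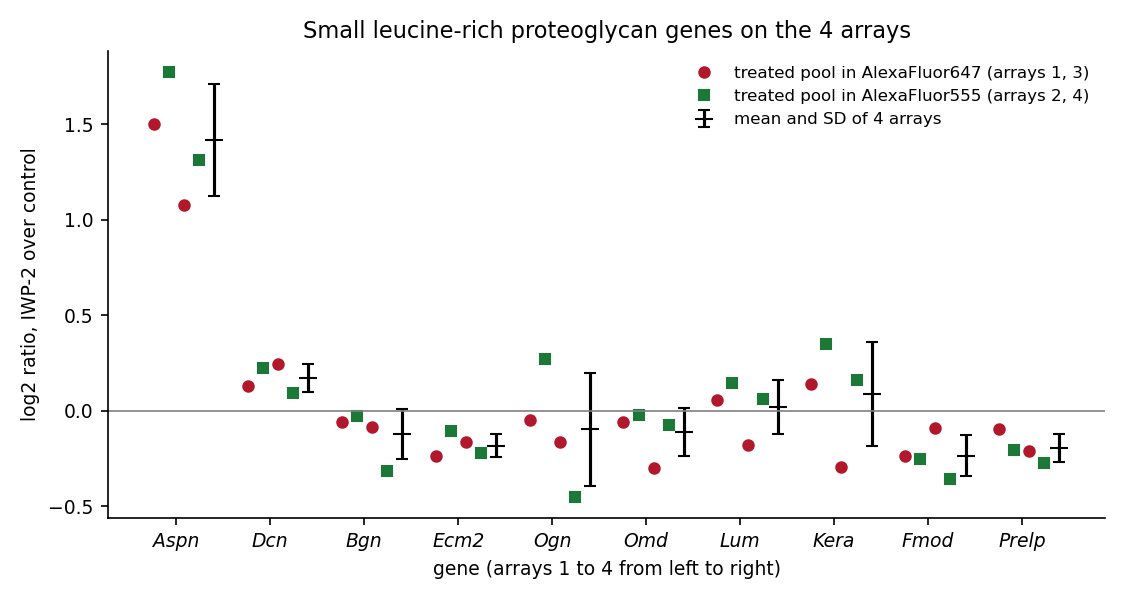
Log2 ratio of IWP-2 over control for the 10 genes on arrays 1 to 4 (left to right), with red circles where the treated RNA was in AlexaFluor647 and green squares where it was in AlexaFluor555. The black bar is the mean with the SD of 4 arrays. Aspn lies between 1.08 and 1.77, and all other values lie between -0.45 and 0.35.

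Lum, Kera, Fmod, Prelp and Omd form the keratan sulfate branch of the family. Lumican (chr10:97035210-97035269) governs fibril spacing in the cornea. Its intensity was 39090, 23501, 33516 and 33704 in control and 40599, 25948, 29583 and 35172 in treated channels. These groups overlapped along most of their range. The log2 ratio was 0.05, 0.14, -0.18 and 0.06, a mean of 0.02 ± 0.14. Lum did not pass under any of the 16 alternatives, which gave -0.04 to 0.08.

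Keratocan (Kera, chr10:97076230-97076289), best known from the corneal stroma, was measured at 212, 130, 193 and 174 in control and 233, 166, 157 and 194 in treated channels. It was higher on 3 arrays and lower on array 3. The log2 ratio was 0.14, 0.35, -0.29 and 0.16, a mean of 0.09 ± 0.27, and it did not pass under any alternative. Without array 1 the plain mean was 0.07 and the fitted value -0.02.

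Fibromodulin (Fmod, chr1:135943998-135944057) guides fibril assembly and collagen cross-linking in tendon. It was measured at 246, 244, 248 and 235 in control and 209, 205, 233 and 183 in treated channels. On this normalised scale all treated values were below all control values, as for 11.5% of all genes. In the processed signals the groups overlapped, since the treated value of array 3 (49.1) exceeded the control values of arrays 1, 2 and 4 (43.2, 41.6 and 48.9). The log2 ratio of -0.24, -0.25, -0.09 and -0.36 had a mean of -0.23 ± 0.11, a 1.18-fold fall. Fmod passed as lower in 14 of 15 alternatives, and did not with the deposited table of rounded fold changes (-0.32).

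Prelp (chr1:135806855-135806914, minus strand) encodes a protein whose basic end binds heparan sulfate and anchors basement membranes to collagen. It was near the low end of the measurable range, at 129, 125, 128 and 126 in control and 120, 108, 111 and 105 in treated channels. The groups did not overlap and all treated values were lower. The log2 ratio of -0.09, -0.21, -0.21 and -0.27 had a mean of -0.20 ± 0.07. The mean was -0.49 with processed signals and -0.03 in the deposited table, and Prelp no longer passed without array 3 (-0.17) or array 4 (-0.18).

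Osteomodulin (Omd, chr13:49687847-49687906), a proteoglycan of mineralised matrix, was dim. It was measured at 125, 114, 127 and 109 in control and 120, 112, 103 and 104 in treated channels. The log2 ratio of -0.06, -0.02, -0.30 and -0.07 was below 0 on all arrays, and most of its size came from array 3. The mean of -0.11 ± 0.13 did not pass, and neither did any of its 15 alternatives.

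Ogn (chr13:49719549-49719608) encodes osteoglycin, also called mimecan, a keratan sulfate proteoglycan of cornea, vessel wall and bone. It was measured at 2446, 1516, 1722 and 2490 in control and 2364, 1826, 1539 and 1824 in treated channels. Its ratios went both ways, at -0.05, 0.27, -0.16 and -0.45, with a mean of -0.10 ± 0.30. The spread between arrays was as large as that of Aspn, while the spots within an array differed with a median SD of only 0.035. Without array 4 the plain mean was 0.02 (fitted 0.08), and without array 2 it was -0.22 (fitted -0.28, which passed as lower).

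The control value was the lowest on array 2 for 8 of the 10 genes and on array 4 for the other 2, beside 27.4% and 26.7% of all genes. Both arrays carry the control RNA in red, so that pool, array and dye cannot be told apart here. The lowest treated value fell on array 2 for 4 genes, on array 3 for 4 and on array 4 for 2. The control value of Aspn spanned 268 to 529, whereas that of Fmod spanned only 235 to 248.

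No tested neighbour on chromosome 13 rose with Aspn. The probes of Ecm2, Aspn, Omd and Ogn follow each other at distances of 34.4, 25.4 and 31.7 kb, and in the RefSeq annotation all 4 genes lie within the span of Cenpp, a gene for a centromere protein. Cenpp itself fell by 0.34 ± 0.14 (limma with Benjamini-Hochberg adjustment, adjusted p = 0.00753). Within 500 kb of these probes, 15 other genes were tested, of which 0 passed as higher and 5 as lower, beside 18.1% and 15.0% of all genes. None was higher at an unadjusted p under 0.05 by limma either, or under any of the 16 alternatives, and the highest log2 ratio among the 15 was 0.08. Besides Cenpp, those that fell were Fgd3 (-0.40, adjusted p = 0.00254 by limma), Iars (-0.39, adjusted p = 0.00292), an isoleucyl-tRNA synthetase, Nol8 (-0.19) and Ippk (-0.17).

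**Figure D3:**
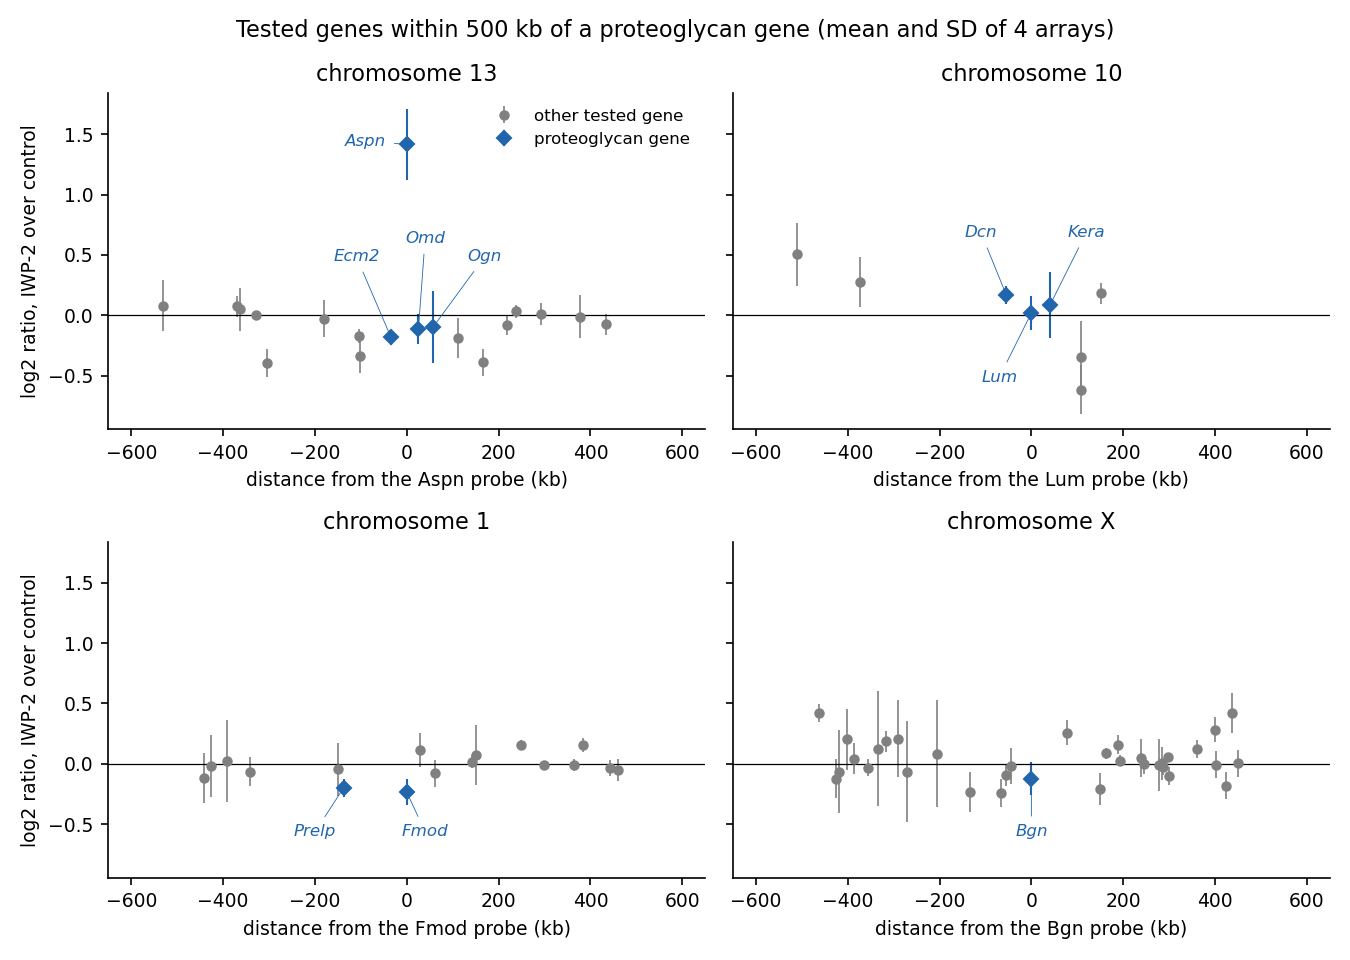
Mean log2 ratio (bars, SD of 4 arrays) of tested genes within 500 kb of a proteoglycan gene, against the distance in kb from the probe of Aspn, Lum, Fmod or Bgn. Blue diamonds are the proteoglycan genes and grey points the other genes. Aspn at 1.42 stands above every gene beside it on chromosome 13, where the others reach at most 0.08.

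On chromosome 10, Dcn, Lum and Kera lie 55.0 and 41.0 kb apart and had ratios of 0.17, 0.02 and 0.09. The next gene in this row, Epyc, encodes epiphycan, a family member of growth cartilage. Its log2 ratio was -0.69, -0.40, -0.86 and -0.51, and it fell by 0.61 ± 0.20 (limma, adjusted p = 0.000367). A probe named Gm10754, 0.29 kb from that of Epyc, fell by 0.35 ± 0.30. The 3 other tested probes within 500 kb (4930556N09Rik, NAP112620-1 and ENSMUST00000166373) rose by 0.51, 0.28 and 0.18.

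On chromosome 1, Prelp and Fmod lie 137 kb apart, and both fell by about the same size (-0.20 and -0.23). Optc, for opticin, a family member of the eye, lies 13.1 kb from Prelp on the side away from Fmod and had a ratio of -0.05 ± 0.22, which did not pass. Of the 15 other genes tested within 500 kb, 2 passed as higher, Ppfia4 and Adipor1, both by 0.16, and 0 as lower by limma, also at an unadjusted p under 0.05, although 1 did under at least 1 alternative. Around Bgn on the X chromosome, 33 genes were tested, 6 passed as higher and 4 as lower, with ratios from -0.24 to 0.42. The largest were those of Renbp and Zfp185, which rose by 0.42 each, Avpr2 (0.28), Atp2b3 (0.26), Zfp92 (-0.24) and Zfp275 (-0.23), and none of them is a matrix gene. In all 4 regions, 11 of 68 neighbours within 500 kb passed as higher and 11 as lower, which is near the shares over all genes. Within 250 kb, 4 of 30 passed as higher (13.3%) and 9 as lower (30%), beside 18.1% and 15.0% of all genes.

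By the root mean square difference of the log2 ratios over the 4 arrays, the named genes most like Aspn were Dmrt2 (0.206), Pcdh8 (0.212), Bhlhe22 (0.251), Adamtsl1 (0.256) and 1110032F04Rik (0.258). They rose by 1.38 ± 0.09, 1.39 ± 0.18, 1.34 ± 0.14, 1.23 ± 0.15 and 1.39 ± 0.12. Dmrt2 and Bhlhe22 encode transcription factors, Pcdh8 a protocadherin and Adamtsl1 a secreted matrix protein. The measure is a description over 4 arrays that the choice of Aspn already used.

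Other genes of the same matrix were read from lists. Their counts, here and in the next paragraphs, stand beside 18.1% of all genes higher and 15.0% lower. Several lists lie near these shares, and nothing is read from such counts. Of 8 further leucine-rich proteoglycan genes, 6 were tested, 2 rose and 1 fell, with a median log2 ratio of 0.01. Podn, for podocan, rose by 0.38 ± 0.10 (limma, adjusted p = 0.00287) and Chadl, for a chondroadherin-like protein, by 0.20 ± 0.16, while Epyc fell as above. Nyx and Podnl1 were not well above background. Of 24 tested enzymes that build or sulfate the chains, 6 rose and 3 fell (median 0.04). Chsy3, a chondroitin synthase, rose by 0.44 ± 0.07, Chst15, a sulfotransferase, by 0.31 ± 0.09, and Chst3, another sulfotransferase, fell by 0.34 ± 0.21. Chst11 (0.26), Chpf (0.24) and B3galt6 (-0.22) also passed.

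The partners of the family in the matrix moved both ways, as did the genes tested as a whole. Of 30 genes for fibril collagens and their processing, 6 rose and 10 fell (median -0.04). Col14a1, a collagen on the fibril surface, rose by 0.48 ± 0.07 and Loxl1, a cross-linking oxidase, by 0.59 ± 0.19, whereas Pcolce2 fell by 0.58 ± 0.16 and the procollagen protease gene Adamts3 by 0.51 ± 0.09. The cartilage collagen gene Col2a1 and the oxidase gene Loxl2 fell by 0.45 and 0.42. Of 18 other proteoglycan core proteins, 3 rose and 9 fell (median -0.17), led by Sdc2, for the cell surface proteoglycan syndecan-2, which fell by 0.98 ± 0.10 (limma, adjusted p = 3.92e-05), and Gpc3, for a glypican, by 0.43 ± 0.11. Sdc1 (-0.42), Gpc1 (-0.35) and Bcan (-0.33) fell as well, and Hspg2, for perlecan, rose by 0.34 and lost its call in 13 of 16 alternatives.

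Of 15 genes for TGF-beta and BMP ligands, receptors, carriers and targets, 3 rose, 3 fell and the median was 0.00. Bmp4, a ligand of the ureteric mesenchyme, fell by 1.31 ± 0.12 (limma, adjusted p = 2.87e-05) and Tgfb3 by 0.27 ± 0.04. The co-receptor gene Tgfbr3 rose by 0.65 ± 0.09, the receptor gene Tgfbr2 by 0.25 and Tgfbi by 0.19, and the carrier gene Ltbp1 fell by 0.42. Tgfb1 and Tgfb2 had ratios of 0.03 and 0.01, neither of which passed.

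Genes of connective tissue cells, where proteoglycans of this family are made, did not share 1 direction. Of 18 fibroblast genes tested, 4 rose and 6 fell, with a median of -0.02 and a summed intensity of 387865 to 422935 in control and 387643 to 427896 in treated channels. Postn, for periostin, fell by 1.28 ± 0.31, Fbln2 by 0.90 ± 0.22 and the transcription factor gene Tcf21 by 0.67 ± 0.11 and Thbs2 by 0.56, while Pdgfrb, for a PDGF receptor, rose by 0.80 ± 0.07 and Fbln5, for an elastic fibre protein, by 0.81 ± 0.16. Of 9 tendon and cartilage genes tested, 1 rose and 5 fell (median -0.27, summed 77496 to 91155 against 70274 to 82375). The one that rose was Scx, for scleraxis, the transcription factor of tendon progenitors, by 0.75 ± 0.19 (limma, adjusted p = 0.000699). Sox9, Mkx, Col9a1 and Thbs4 fell by 0.57 ± 0.58, 0.48 ± 0.17, 0.44 and 0.34. Sox9 went both ways, at -1.05, 0.23, -0.95 and -0.53 on arrays 1 to 4. The paper reports Sox9 RNA in the ureteric mesenchyme at a later stage and names it among genes implicated in smooth muscle cells, so it is no marker of tendon or cartilage alone. Of 6 bone genes tested, 0 rose by limma, also at an unadjusted p under 0.05, with 1 under at least 1 alternative, and 3 fell (median -0.25, summed 3591 to 6460 against 4732 to 5911), namely Sp7 by 1.16 ± 0.11, Ibsp by 0.70 ± 0.10 and Runx2 by 0.39 ± 0.14. Sp7, Ibsp and Runx2 were dim, and a filter on a processed signal over 100 removed them before the test, with a bone median of 0.17. The part of the fibroblast, tendon, cartilage and bone genes in the values of the 10 genes was not tested.

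**Figure D4:**
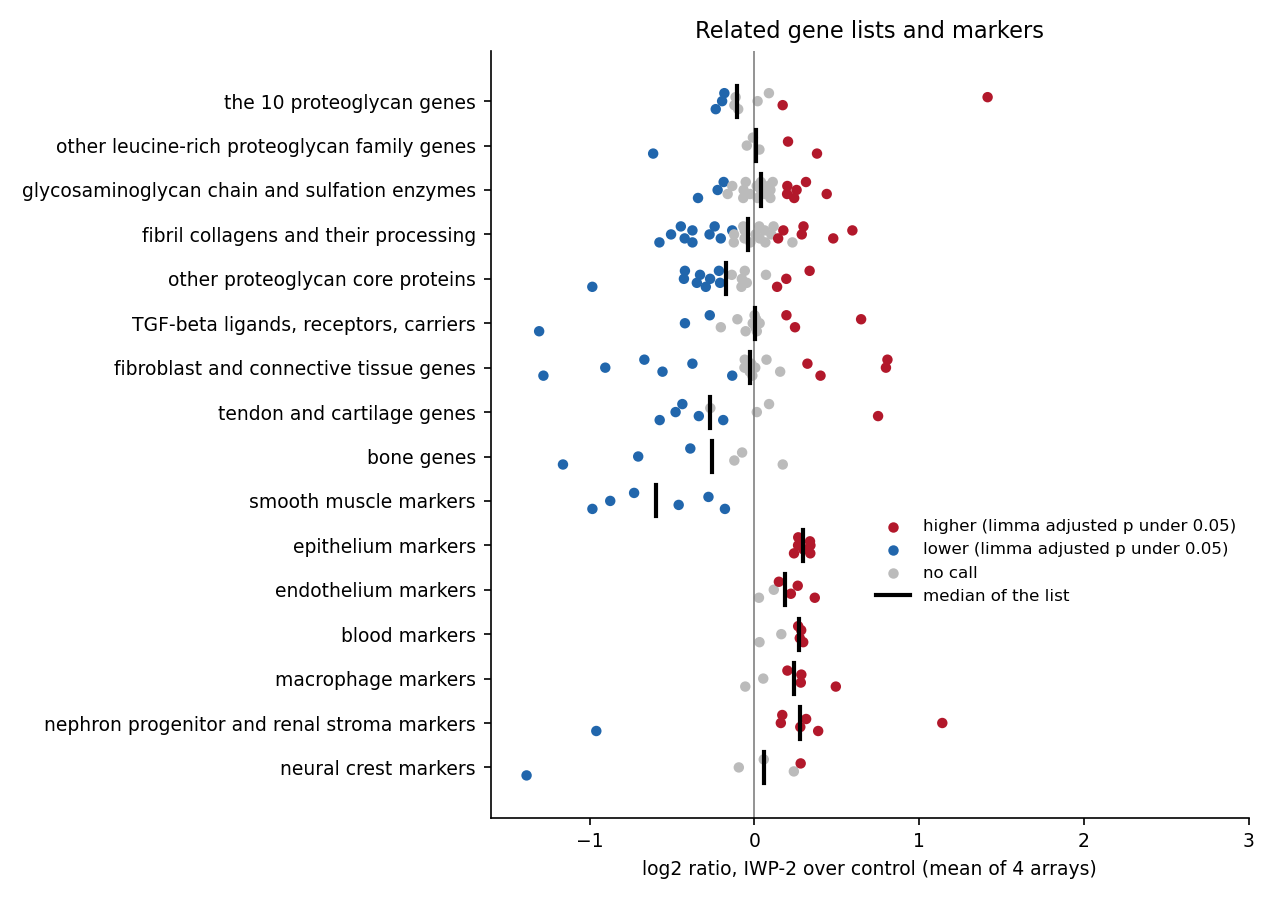
Mean log2 ratio over 4 arrays of every tested gene in each list, with genes that passed as higher in red, lower in blue and the rest in grey, and the list median as a black bar. The 10 proteoglycan genes have a median of -0.11 with Aspn far to the right at 1.42, and the smooth muscle markers lie wholly to the left.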

How the data were processed

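RNA of pools of treated and control ureters was hybridised to 4 two-colour arrays, and per the labels each array is 1 replicate. The authors extracted the spots with Agilent Feature Extraction 10.7.3.1. The deposited intensity values used are the mean and the local background of each spot and channel, which are raw, and the processed signals, which are background-subtracted and dye-normalised. The deposited log10 ratio per spot was used to check the direction. The deposited series table holds signed fold changes, read as a score, whose log2 values followed the processed ratios with r of 0.988 to 0.992 across 20405 bright probes.

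Intensities were corrected with normexp (offset 50) and normalised by loess (span 0.3) in limma 3.58.1 (R 4.3.3). Control and outlier spots were left out and the 4 spots of a probe averaged. Channel values additionally had Aquantile normalisation between arrays. Genes were tested where more than 0.5 of the spots were well above background on all 4 arrays in either group, with the brightest probe per gene, which left 22461 genes. Treatment and dye were terms of 1 linear model per gene on the log2 ratios (lmFit, eBayes). Adjusted p is two-sided after Benjamini-Hochberg correction, with 0.05 as the threshold. The array pairs each treated pool with a control pool, and the pairing is that of the hybridisation.

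The 10 genes, 15 lists (178 genes, 169 tested) and tests were chosen with earlier results of these data known. A further marker gene is not reported here. Named are all 10 genes, of each list and of the neighbours within 500 kb those past the threshold, with up to 6 by size, and the 5 named genes nearest to Aspn. Genes named outside this are there for their position or role. Marker genes not above background are named as such. Alternatives were other background corrections, normalisations, filters, sources, windows of 250 and 1000 kb and leaving out each array. The linear model fit was tested on simulated log2 ratios, and the other steps were not. Probe positions are those of the files (mm9), without an annotation of that build, and no exon is assigned. Of the tested genes, 17852 have a symbol in the RefSeq table. Promoter sequences were read on GRCm38.p6. Figures were drawn with matplotlib 3.10.9. For arrays their number limits the precision.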

Additional observations from a re-analysis of the deposited data

Results flagged for a closer look

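On 1 of the 4 arrays, 6 of the 135 genes looked at and 1 of 16 list medians lay far from the other arrays, and none of the 10 proteoglycan genes did. Chance flags about 1 in 20 groups. Array 3 stood apart for Pcolce (0.095, others 0.16 to 0.17), Tgfb3 (-0.21, others -0.30 to -0.28) and the median of the fibroblast genes (-0.050, others -0.024 to -0.019). Array 1 stood apart for Bmp4 (-1.13, others -1.37 to -1.35). Array 2 stood apart for Zfp92 beside Bgn (-0.42, others -0.20 to -0.16) and for Dmrt2 (1.52, others 1.32 to 1.35) and Adamtsl1 (1.45, others 1.13 to 1.17), which are among the genes most like Aspn.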

How the results depend on the processing

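The calls on the 10 genes rest on the values by which the group was chosen and support nothing by themselves. Aspn lost its call in 0 of 16 alternatives, Fmod in 1 of 15, Prelp in 3 of 15, Ecm2 in 5 of 15 and Dcn in 6 of 16. Among the 10 genes, 1 passed as higher with processed signals, median centring, the series table and 8 channels as separate samples (no replicate block), and 1 to 2 when an array was left out. As lower, 0 passed with the series table and 0 with a processed signal over 100, a filter that removed Ecm2, Fmod and Prelp before the test, and 1 to 5 when an array was left out. Without array 2, Bgn and Ogn also passed. Over all genes, 1833 passed as higher and 2050 as lower with the series table, and 2039 and 2067 with the 8 channels unpaired. Leaving out an array gave 2879 to 3348 higher and 2177 to 2811 lower. Of the neighbours, 3 passed as higher and 4 as lower with the series table, 6 and 6 unpaired, and 6 and 8 with a signal over 100. Within 250 kb, 4 of 30 passed as higher and 9 as lower, and within 1000 kb 22 and 15 of 117. Without an array, 7 to 10 neighbours passed as higher and 6 to 12 as lower. List medians moved with a signal over 100 for the 10 genes (0.020), other family genes (0.20), collagens (-0.0084) and bone (0.17), with processed signals for tendon (-0.43) and bone (-0.95), with offset 10 for bone (-0.43) and with the series table for bone (-0.082) and fibroblast genes (-0.050), whose median was -0.033 to 0.00031 without an array. No result changed sign past the threshold. Of 125 other named genes that passed, 42 did so in every setting in which they were tested. Among these 42, Epyc, Pcolce2, Adamts3, Bcan, Mkx, Thbs4, Sp7 and Bhlhe22 were tested in only 15 of the 16 alternatives. The cause of the other changes was not tested. Dim probes limit the ratios of Omd, Prelp, Ecm2, Kera and Fmod, and also those of the bone genes Sp7, Ibsp and Runx2. Other genes tested in only 15 of the 16 alternatives, Epyc among them, may be limited in the same way. Slide and scan could not serve as batches, because all arrays share them.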
